A study of Mus musculus with 6 samples.

Results

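10 genes of the transforming growth factor beta (TGF-β) system and of the microfibrils that store it were followed through the cell types of the young mouse brain after an injection of lysophosphatidic acid. They were taken by symbol and found as 10 of the 32285 genes in the deposited count matrices. They comprised the ligands Tgfb1, Tgfb2 and Tgfb3, the receptors Tgfbr1 and Tgfbr2, Nrros, the latent TGF-β binding proteins Ltbp1 and Ltbp2, and the fibrillins Fbn1 and Fbn2. Nrros is the current symbol of Lrrc33, under which the gene had been listed for study, and the matrices hold it only as Nrros.

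TGF-β is secreted in a latent form, folded into its own propeptide and tethered to a partner that decides where it is kept. LTBP1 ties the latent complex to fibrillin microfibrils in the extracellular matrix, NRROS holds latent TGF-β1 on the surface of microglia and macrophages, and integrins release the active ligand. The freed ligand joins the type II receptor TGFBR2 to the type I receptor TGFBR1, which phosphorylates SMAD2 and SMAD3. In the brain, TGF-β signalling is known for keeping microglia in their homeostatic state, and fibrillin-2 is known as a fibrillin of developing tissue.

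Libraries were made from the brains, without olfactory bulbs and cerebellum, of 3 mice injected with lysophosphatidic acid (LPA), a blood lipid, and 3 injected with vehicle, 0.01% bovine serum albumin. Both groups were C57BL/6 S-56 mice that received 5 µl into the right lateral ventricle on day 7 after birth and were collected on day 15. Nuclei without the neuronal protein NeuN were sorted and sequenced with the 10x Genomics 3′ kit, which gave 1 library per brain.

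Total unique molecular identifiers (UMIs, 1 per captured transcript) ranged over 50737541 to 54715094 per LPA library and 48852970 to 65688644 per vehicle library, and 57443 nuclei were kept. No pair of libraries shared more than 39 cell barcodes. Clusters were named by marker genes, so that a cell type here means nuclei like it by these markers, and 8576 nuclei stayed unnamed. Microglia made up 4.66% to 5.48% of the nuclei kept in LPA libraries, against 0.826% to 2.73% in vehicle libraries, and meningeal cells 4.06% to 5.54% and 9.49% to 10.8%. Males, told by Xist and genes of chromosome Y, gave LPA 1 and both vehicle 1 and vehicle 3, and females gave the rest. The labels do not tie a replicate number to a litter or day, and p-values measure the spread between these 6 brains.

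The members lie apart in the genome, by the GENCODE M21 annotation of GRCm38, counted from 1. Tgfb1 (ENSMUSG00000002603) spans chromosome 7, 25687002 to 25705077, Tgfb2 (ENSMUSG00000039239) chromosome 1, 186622792 to 186705989, and Tgfb3 (ENSMUSG00000021253) chromosome 12, 86056745 to 86079041. The receptors Tgfbr1 (ENSMUSG00000007613) and Tgfbr2 (ENSMUSG00000032440) span chromosome 4, 47353222 to 47414931, and chromosome 9, 116084293 to 116175360. Nrros (ENSMUSG00000052384) spans chromosome 16, 32142785 to 32165594. Ltbp1 (ENSMUSG00000001870) is the longest at chromosome 17, 75005568 to 75392512, and Ltbp2 (ENSMUSG00000002020) lies on chromosome 12, 84783212 to 84876532. Fbn1 (ENSMUSG00000027204) spans chromosome 2, 125300594 to 125507993, and Fbn2 (ENSMUSG00000024598) chromosome 18, 58008623 to 58210487.

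Levels are CPM, the UMIs of a gene for each 1000000 UMIs of its cell type in a library, scaled by the trimmed mean of M-values (TMM), and are compared only within a gene. A call rests on edgeR's quasi-likelihood test of UMIs summed per library and cell type, and needs both an adjusted p below 0.05 and a change of 0.25 or more, up or down, on the log2 scale. Where libraries of the groups are said to overlap or not, this describes the values and is no second test. The share of all genes without such overlap was not counted. The matrices hold intronic reads, and Tgfb3 overlaps the more abundant Ttll5 on the opposite strand.

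The 250 bases before the start are shown for 4 of the called members: Tgfbr1 and Nrros, called in microglia, and Tgfbr2 and Fbn1, called in astrocytes. Fbn2 and Ltbp1 were called too, but their windows are not shown. The windows shown are RefSeq sequences of GRCm38.p6, written 5′ to 3′ on the strand of the gene. Capitals mark CAGAC, the core of the SMAD binding element, searched on both strands (GTCTG on the other), and TTCNNNGAA, the core of a STAT site, which reads alike on both strands.
Tgfbr1, chr4:47352972-47353221, plus strand: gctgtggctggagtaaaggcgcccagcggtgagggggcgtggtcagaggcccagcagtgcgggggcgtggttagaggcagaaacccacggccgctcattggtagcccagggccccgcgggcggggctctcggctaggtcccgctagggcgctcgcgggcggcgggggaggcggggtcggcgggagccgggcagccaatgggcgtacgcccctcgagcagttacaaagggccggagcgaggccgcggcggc
Nrros, chr16:32165595-32165844, minus strand: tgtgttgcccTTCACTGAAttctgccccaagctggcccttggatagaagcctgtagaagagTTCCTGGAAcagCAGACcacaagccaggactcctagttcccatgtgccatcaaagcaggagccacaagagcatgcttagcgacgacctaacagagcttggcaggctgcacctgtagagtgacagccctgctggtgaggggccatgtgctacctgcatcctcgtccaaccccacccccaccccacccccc
Tgfbr2, chr9:116175364-116175613, minus strand: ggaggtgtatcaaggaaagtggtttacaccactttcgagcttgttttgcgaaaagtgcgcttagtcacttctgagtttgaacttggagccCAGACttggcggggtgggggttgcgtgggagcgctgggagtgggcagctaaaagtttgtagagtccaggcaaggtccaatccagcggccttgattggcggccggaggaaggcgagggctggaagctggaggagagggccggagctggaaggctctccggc
Fbn1, chr2:125506439-125506688, minus strand: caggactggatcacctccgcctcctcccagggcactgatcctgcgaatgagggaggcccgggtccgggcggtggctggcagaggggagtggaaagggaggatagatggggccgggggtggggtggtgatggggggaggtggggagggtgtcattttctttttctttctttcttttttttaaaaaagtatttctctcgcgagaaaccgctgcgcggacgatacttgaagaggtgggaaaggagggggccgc
CAGAC stood once in the windows of Tgfbr2 and Nrros and in neither of the other windows shown, and TTCNNNGAA stood 2 times in that of Nrros alone. No matches overlapped. RefSeq gives Tgfbr1 a second start, whose window (chr4:47385966-47386215, not shown) held 1 CAGAC. The RefSeq start of Fbn1 lies inside the span that GENCODE gives the gene, so its window does too. Of 32851 mouse promoter windows in the table, 42.2% held CAGAC and 7.02% TTCNNNGAA, so that a match is common and describes these letters only.

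**Figure D1:**
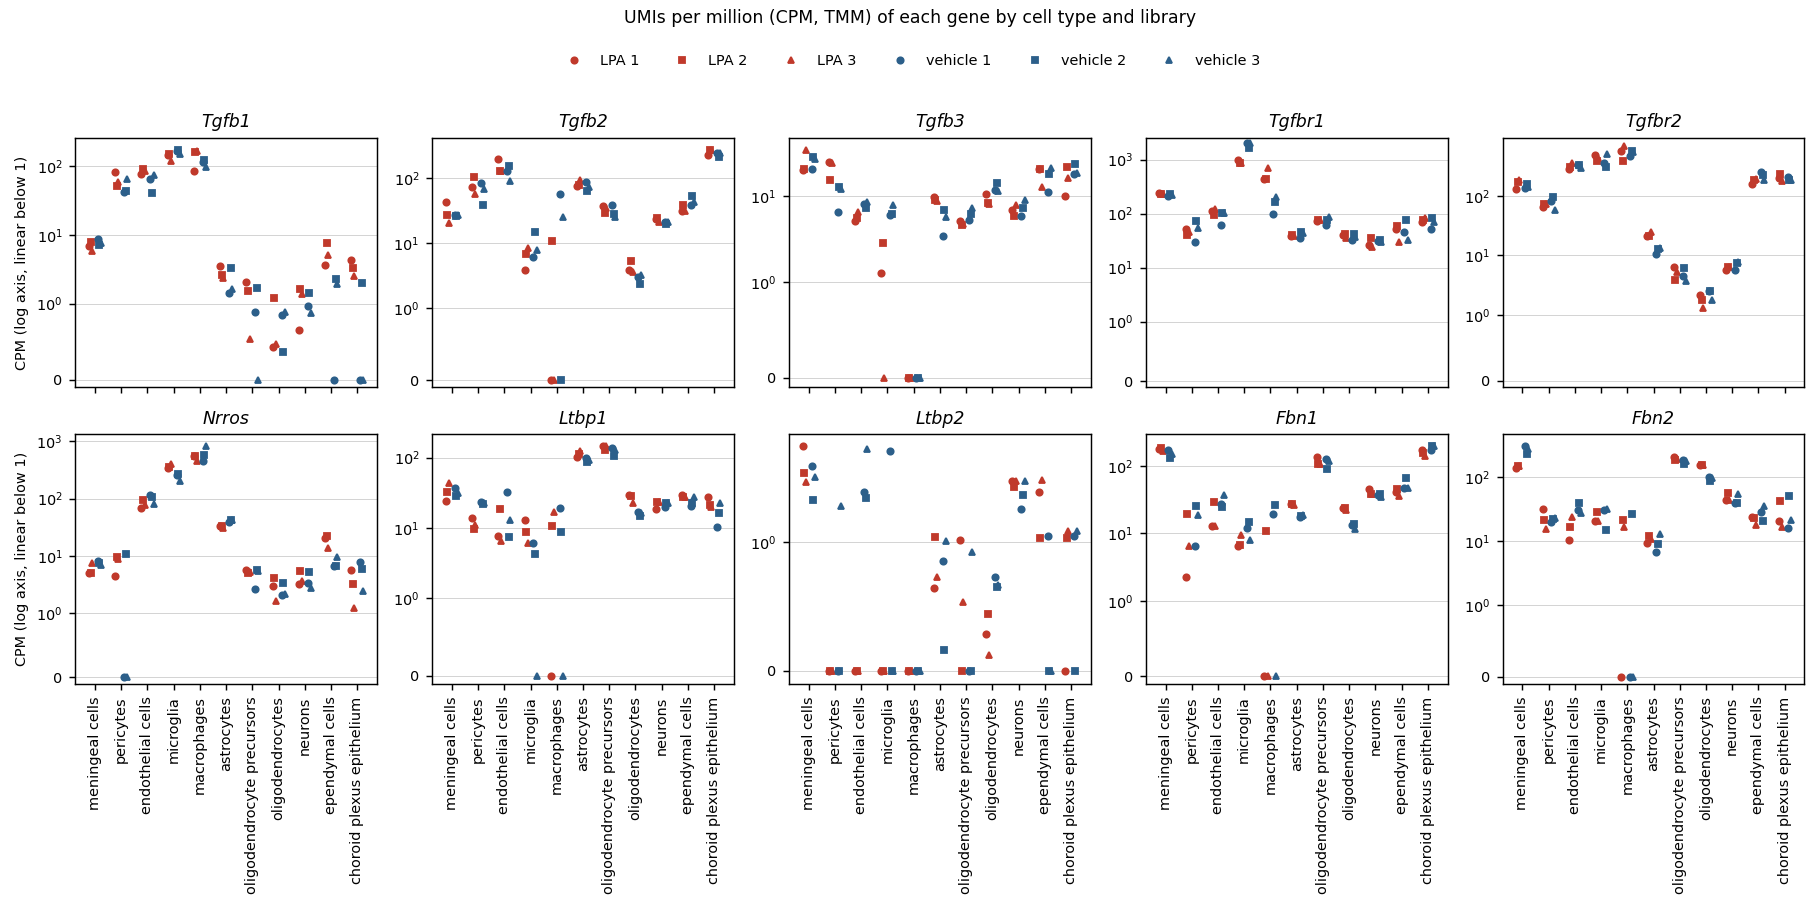
Each panel plots 1 gene, with cell types on the x axis and CPM (TMM) on a log y axis that is linear below 1; red points are the 3 LPA libraries and blue points the 3 vehicle libraries, with circles, squares and triangles for replicates 1, 2 and 3. Tgfbr1 stands highest in microglia, where every red point lies below every blue point, while Ltbp2 stays near or under a few CPM in all cell types.

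Of the ligands, Tgfb1 was highest in microglia in vehicle libraries, at 165 CPM ± 13.6 (SD, n = 3), above macrophages at 113 ± 12.2. Endothelial cells at 60.6 ± 17.3 and pericytes at 50.6 ± 12.9 followed with overlapping libraries. Over LPA and vehicle libraries together, microglia held 39.4% of the Tgfb1 UMIs of all named nuclei, and 34.6% of Tgfb1 UMIs lay in unnamed nuclei. Among the 11 cell types tested, Tgfb2 was highest in the choroid plexus epithelium, the tissue that makes cerebrospinal fluid, at 233 CPM ± 15.3, and then in endothelial cells at 124 ± 31.9. Astrocytes at 75.2 ± 11.3 and pericytes at 63.7 ± 23.6 overlapped in Tgfb2, and microglia were at 9.54 ± 4.50. Tgfb3 was low in these 11 cell types, with 25.7 CPM ± 4.10 in meningeal cells and 20.3 ± 3.22 in the choroid plexus epithelium, which overlapped. Among meningeal cells it stood at 65.3 ± 11.9 and 66.2 ± 14.95 CPM in the sub-clusters led by Slc47a1 and by Cdh1 (v04 and v06), and at 2.41 ± 1.46 in the one led by Aox3 (v01). A group of 22 smooth muscle nuclei, too few to test, stood above all of these. Of its nuclei 72.7% held a Tgfb2 UMI and 40.9% a Tgfb3 UMI, and without TMM scaling it was at 292 to 1394 CPM of Tgfb2 and 299 to 488 CPM of Tgfb3 in vehicle libraries, from 14, 11 and 6 UMIs and 3, 8 and 7 UMIs.

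Of the receptors, Tgfbr1 stood at 1885 CPM ± 201 in vehicle microglia, followed by meningeal cells at 222 ± 8.76 and macrophages at 155 ± 52.5, and these 3 did not overlap. Tgfbr2 was highest in macrophages at 526 CPM ± 53.3 and in microglia at 397 ± 111, which overlapped. Endothelial cells (320 ± 23.1), ependymal cells (221 ± 34.6) and the choroid plexus epithelium (195 ± 14.8) came next in Tgfbr2. In the oligodendrocyte lineage Tgfbr2 was low, at 4.81 ± 1.32 in precursors. Nrros was highest in macrophages at 617 CPM ± 191, followed by microglia at 244 ± 34.7, endothelial cells at 101 ± 18.3 and astrocytes at 41.7 ± 1.84, with no overlap between neighbours in this order.

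The latent binders and fibrillins had other sources. Ltbp1 stood at 122 CPM ± 16.7 in oligodendrocyte precursors and 91.9 ± 6.97 in astrocytes, which held 40.2% of its named UMIs over LPA and vehicle libraries together. Its level was highest in the 22 smooth muscle nuclei, of which 77.3% held an Ltbp1 UMI, against 1.40% of microglial nuclei. Ltbp2 had 453 UMIs in all nuclei kept, and 66.6% of its named UMIs were in neurons. Fbn1 was highest in the choroid plexus epithelium at 187 CPM ± 13.8, above meningeal cells at 150 ± 19.0 and oligodendrocyte precursors at 111 ± 18.7. Fbn2 was highest in meningeal cells at 269 CPM ± 37.9, followed by precursors at 172 ± 12.3 and oligodendrocytes at 93 ± 6.71, with no overlap between these 3.

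LPA was then compared with vehicle in 11 cell types. Of the 110 pairs of gene and cell type, 78 passed the filter on low counts and were tested, and 11 pairs in 5 cell types were called, 8 higher and 3 lower in LPA. The share of all genes tested that were called differed by cell type, from 0.0397% in the choroid plexus epithelium to 9.25% in microglia. It is given with each cell type below. The calls of members lay in meningeal cells, microglia, macrophages, astrocytes and oligodendrocytes. Pericytes, endothelial cells, neurons, oligodendrocyte precursors, ependymal cells and the choroid plexus epithelium had none.

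**Figure D2:**
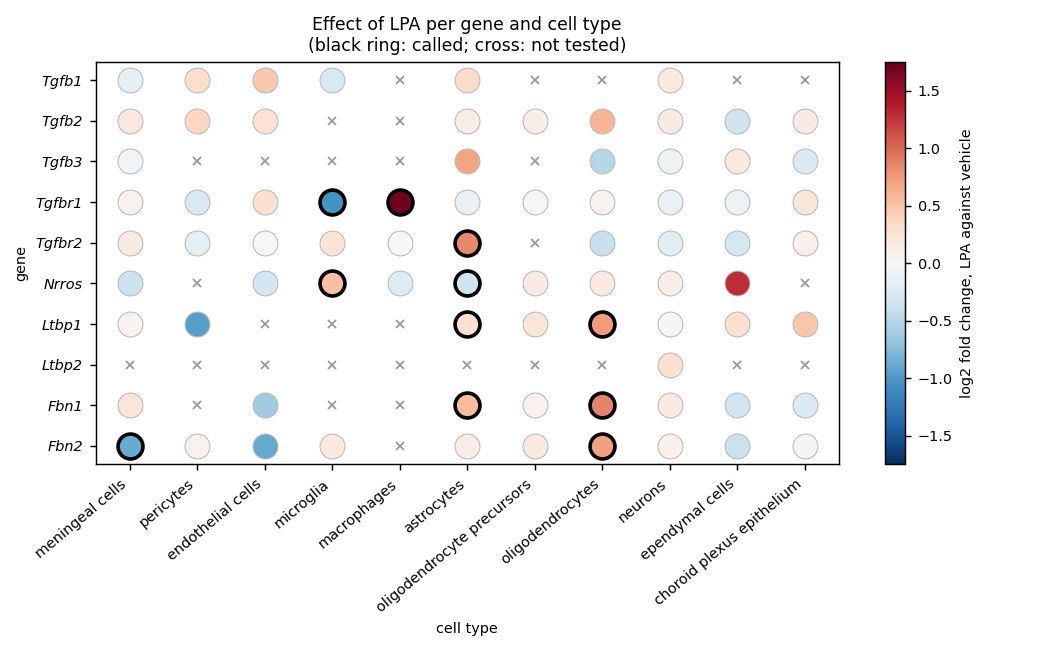
Rows are the 10 genes and columns the 11 cell types; the colour of a point is the log2 fold change of LPA against vehicle, a black ring marks a call and a cross a pair that was not tested. Of the 11 rings, 3 are blue: Fbn2 in meningeal cells, Tgfbr1 in microglia and Nrros in astrocytes.

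In meningeal cells, those of the coverings of the brain, Fbn2 fell and no other member was called. The class was mixed, with sub-clusters led by Aox3 or Col4a6 and others led by Slc47a1, Cdh1, Dpp4 or Bglap. Fbn2 stood at 139, 149 and 147 CPM in LPA libraries 1 to 3 and at 303, 228 and 277 in vehicle libraries 1 to 3. Every LPA library lay below every vehicle library. The difference was −0.88 on the log2 scale (standard error 0.10, adjusted p = 6.58e-05), where 1 of 9 members tested was called and 1.36% of all genes tested in meningeal cells were called, 0.588% lower. The sum rested on 605 UMIs in LPA and 2358 in vehicle. Fbn1, the related fibrillin, stood at 165 to 181 CPM in LPA and 132 to 170 in vehicle libraries, which overlapped (0.23, adjusted p = 0.39).

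Fbn2 differed among the meningeal sub-clusters, and their mix moved with LPA. It was highest in sub-cluster v01, led by Aox3 and Slc22a2, which made up 13.7% ± 1.41 of meningeal nuclei in LPA and 26.0% ± 1.88 in vehicle libraries (exact permutation test, two-sided p = 0.1, the smallest that 3 against 3 allow). Within v01, Fbn2 stood at 387, 437 and 296 CPM in LPA libraries and 797, 616 and 705 in vehicle libraries, with no overlap. It was called there (−0.92, standard error 0.16, adjusted p = 0.0022 from edgeR, 0.919% of genes called). In v02, led by Col4a6 and Lama1, it was 229 ± 28.2 in LPA and 321 ± 45.2 in vehicle (−0.48, adjusted p = 0.29), and in v03, led by Fam180a and Ptgds, 166 ± 40.3 and 215 ± 11.4 (−0.39, adjusted p = 0.61), where 0.271% and 0.0544% of genes were called. With an equal number of nuclei of each sub-cluster from every library, the fold change over meningeal cells was −0.48 (adjusted p = 0.031), a call in the same direction and of a smaller size.

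**Figure D3:**
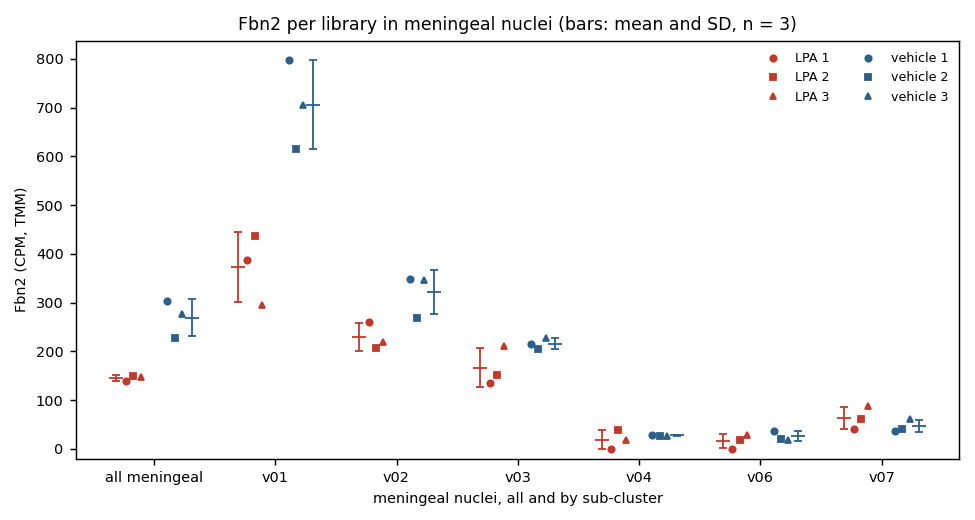
The y axis is Fbn2 in CPM (TMM) and the x axis all meningeal nuclei and 6 sub-clusters; points are libraries, red for LPA and blue for vehicle, and bars give the mean and SD of 3 libraries. The blue points of v01 lie at 616 to 797 and its red points at 296 to 437, while v04, v06 and v07 hold little Fbn2 in either group.

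Of the 60 genes of 4 pathway lists tested in meningeal cells, 4 rose and none fell, where 1.36% of all genes tested were called. Of 19 microfibril and elastic fibre genes tested, 3 rose and 16 did not pass: Adamtsl1 (0.46, adjusted p = 0.0062) and Adamts6 (0.47, adjusted p = 0.024), of the ADAMTS family whose members bind or cut fibrillins, and Fn1, fibronectin (0.41, adjusted p = 0.040; all from edgeR). The median log2 fold change of the list was −0.01, against −0.00 over all genes tested. Of 13 genes of intracellular signalling, 1 rose, Pmepa1, a TGF-β target that restrains SMAD signalling (0.58, adjusted p = 0.016). None of 19 genes of activation and release and none of 9 transcriptional targets tested was called by edgeR, with 3 and 1 at an unadjusted p under 0.05. Tgfbr1 stood at 232 ± 5.89 CPM in LPA and 222 ± 8.76 in vehicle meningeal cells (0.07, adjusted p = 0.86), and Tgfbr2 at 162 ± 28.5 and 148 ± 11.7 (0.14, adjusted p = 0.73).

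In microglia, Tgfbr1 fell and Nrros rose, 2 of 5 members tested, where 9.25% of all genes tested were called. Tgfbr1 stood at 998, 859 and 878 CPM in LPA libraries 1 to 3 and at 2004, 1653 and 1997 in vehicle libraries 1 to 3. All LPA libraries lay below all vehicle libraries. On the log2 scale the difference was −1.04 (standard error 0.12, adjusted p = 1.21e-08 by edgeR). Nrros, whose call was lost with DESeq2 (adjusted p = 0.061) and without the mitochondrial filter (adjusted p = 0.052, edgeR), stood at 339, 359 and 399 CPM in LPA and 256, 272 and 205 in vehicle libraries, again without overlap, and differed by 0.52 on the log2 scale (standard error 0.14, adjusted p = 0.0087). Without the mitochondrial filter the microglia were another set of nuclei, as a cluster led by Ccl3 and Itgax stayed unnamed. Tgfb1 was at 139 ± 17.7 CPM in LPA and 165 ± 13.6 in vehicle libraries (−0.28, adjusted p = 0.36, edgeR), and Tgfbr2 at 439 ± 57.5 and 397 ± 111 (0.23, adjusted p = 0.41, edgeR).

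The microglia of the groups fell into different sub-clusters. Sub-clusters i02, led by Gpnmb and Atp6v0d2, and i04, led by Ccl3 and Cd86, made up 42.4% to 58.7% of microglial nuclei in LPA libraries and at most 1.03% in vehicle libraries. In LPA libraries Tgfbr1 stood at 410 to 497 CPM (without TMM scaling, as in the other sub-cluster values of LPA libraries here) in i02 and at 432 to 746 in i04. In i00 and i01, the sub-clusters led by Selplg and Siglech that every library held, Tgfbr1 stood at 1446 to 1769 and 1124 to 1310 in LPA libraries and at 1700 to 2041 and 1582 to 1991 in vehicle libraries. Nrros stood at 350 to 412 in i02 and 360 to 541 in i04 in LPA libraries, against 292 to 384 in i00, and these ranges overlapped.

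Among nuclei of i00 and i01 alone, neither gene was called: Tgfbr1 differed by −0.37 (standard error 0.12, adjusted p = 0.22 from edgeR) and Nrros by 0.34 (standard error 0.16, adjusted p = 0.66). Fitted each alone, i00 had 0.100% and i01 0.377% of all genes tested called. That share was not counted for both together or for the equal numbers below. Within i01, Tgfbr1 was lower in all 3 LPA libraries than in any vehicle library, at 1213 ± 92.9 against 1810 ± 198 CPM, without passing the adjusted threshold (−0.56, adjusted p = 0.18). With equal numbers of i00 and i01 nuclei from every library, 74 in each, the values were −0.28 for Tgfbr1 (adjusted p = 0.82) and 0.40 for Nrros (adjusted p = 0.87). Over all microglia, the summed level of 8 macrophage markers was 1555 to 1944 CPM in LPA and 285 to 476 in vehicle libraries, that of 6 activation markers 2527 to 3761 and 560 to 821, and that of 10 microglial markers 6657 to 7460 and 9665 to 11350. None of the markers of these 3 lists was at 0. Their part in the result was not tested.

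**Figure D4:**
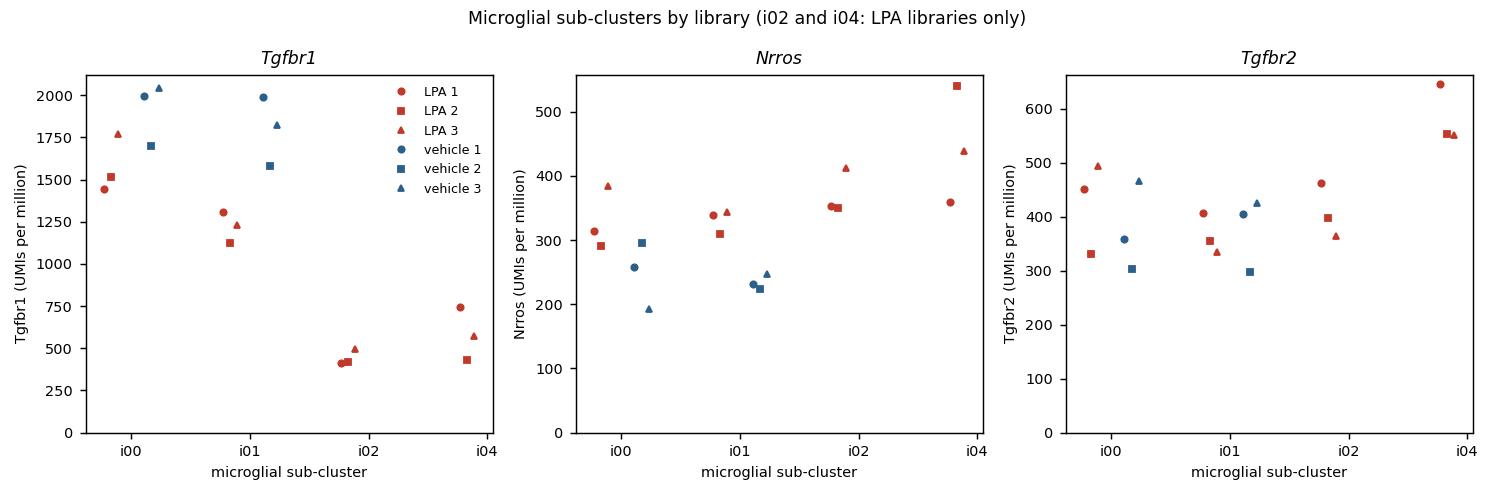
Panels give Tgfbr1, Nrros and Tgfbr2 in CPM without TMM scaling for 4 microglial sub-clusters; points are libraries, red for LPA and blue for vehicle, and i02 and i04 are drawn for LPA libraries only because vehicle libraries held at most 3 such nuclei each. Tgfbr1 lies at 410 to 746 in i02 and i04 and at 1124 or more in i00 and i01.

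Of the 29 pathway genes tested over all microglia, 7 fell, 1 rose and the others did not pass, where 9.25% of all genes tested were called. Of 12 signalling genes tested, 2 fell: Smad7, the inhibitory SMAD that TGF-β induces (−0.57, adjusted p = 0.013), and Pmepa1 (−0.51, adjusted p = 0.0068). Of 8 genes of activation and release, Eng, the co-receptor endoglin (−0.92, adjusted p = 0.026), and the integrin subunits Itgb3 (−1.04, adjusted p = 0.033) and Itgb5 (−0.46, adjusted p = 0.022) fell, while Nrros, which is on this list too, rose. Loxl2, a lysyl oxidase (−0.68, adjusted p = 0.025), was the 1 of 3 transcriptional targets called, and Adamts17 (−1.34, adjusted p = 0.034; all from edgeR) the 1 of 6 microfibril partners. The signalling list had a median of −0.25 and all genes tested one of −0.01. By sub-cluster, Smad7 stood at 84.1 CPM (without TMM scaling) in i02 over the LPA libraries against 200 in i00, and Pmepa1 at 172 against 509. Within i00 and i01, Smad7 (−0.04 and −0.32) and Pmepa1 (0.29 and −0.55) were not called.

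The fall of Tgfbr1 in microglia differed from the effect in other cell types by a test of the difference itself. It was −1.05 below that in meningeal cells (standard error 0.13, adjusted p = 3.07e-14, 3.85% of genes called) and −1.34 below that in endothelial cells (standard error 0.23, adjusted p = 8.86e-06, 2.58% of genes called), in edgeR with the library as a block. Against pericytes the difference was −0.75 (adjusted p = 0.14, 2.69% of genes called). The rise of Nrros was 0.89 above the effect in endothelial cells (standard error 0.25, adjusted p = 0.029). That call was lost in 7 of 10 alternatives, among them the fits without LPA 1, LPA 3 or any of the vehicle libraries (0.79 to 0.97, adjusted p = 0.071 to 0.16). These 3 were the only calls of members in the 6 pairs of meningeal cells, pericytes, endothelial cells and microglia. In the pairs without microglia 0.324% (pericytes and meningeal cells), 0.0982% (endothelial and meningeal cells) and 0.0225% (endothelial cells and pericytes) of genes were called. In these 3, the microglial side is the whole class with its sub-cluster mix.

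In macrophages of the brain borders, Tgfbr1 rose, 1 of 3 members tested, where 0.269% of all genes tested were called. It stood at 447, 440 and 705 CPM in LPA libraries 1 to 3 and at 96.9, 167 and 199 in vehicle libraries 1 to 3, from 124 and 32 UMIs. The groups did not overlap, and differed by 1.70 on the log2 scale (standard error 0.31, adjusted p = 0.010). Without LPA 3 it was 1.496 and was not called (adjusted p = 0.18, edgeR). The summed level of 10 microglial markers in these macrophages was 3080 to 4005 CPM in LPA and 2803 to 3016 in vehicle libraries, and that of 8 macrophage markers was 12600, 11790 and 8095 in LPA libraries 1 to 3 against 13260, 15390 and 16450 in vehicle libraries 1 to 3. None of either list was at 0. LPA 3, with the most Tgfbr1, had the most of the first list and the least of the second, and their part in the result was not tested. Tgfbr2 (−0.01) and Nrros (−0.24) were not called there.

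In astrocytes 4 of 9 members tested were called, where 8.30% of all genes tested were called. Tgfbr2 stood at 21.6, 21.5 and 24.4 CPM in LPA libraries 1 to 3 and at 10.5, 13.1 and 13.3 in vehicle libraries, a rise of 0.84 on the log2 scale (standard error 0.13, adjusted p = 0.00051). Fbn1 stood at 26.7, 27.1 and 26.5 against 17.4, 18.3 and 18.8, a rise of 0.56 (standard error 0.11, adjusted p = 0.0035). In both genes all LPA libraries lay above all vehicle libraries. The summed level of 11 ependymal markers in astrocytes, none at 0, was 85.5 to 113 CPM in LPA and 43.1 to 51.1 in vehicle libraries, and its part in the result was not tested. Nrros stood at 32.7, 34.0 and 30.4 against 39.6, 42.1 and 43.3, a fall of −0.37 (adjusted p = 0.019), and Ltbp1 at 100, 112 and 123 against 99.2, 85.4 and 91.2, a rise of 0.29 (adjusted p = 0.040, edgeR). The lowest LPA library of Ltbp1 stood just above the highest vehicle library. Ltbp1 was not called without LPA 2, LPA 3, vehicle 2 or vehicle 3 (0.21 to 0.28, adjusted p = 0.11 to 0.20), and Nrros was lost when LPA 3, vehicle 2 or vehicle 3 was left out (−0.36 to −0.32, adjusted p = 0.065 to 0.089).

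Cluster c09 of the astrocytes, led by Myoc, Thbs4 and Gfap, the filament gene of reactive astrocytes, made up 24.9% ± 1.25 of astrocytes in LPA and 11.6% ± 0.589 in vehicle libraries (exact permutation test, p = 0.1). Fbn1 and Tgfbr2 rose within it as well. Fbn1 stood at 51.6, 43.7 and 45.9 CPM in its LPA libraries and 25.8, 18.1 and 26.1 in its vehicle libraries (1.04, adjusted p = 0.0093), and Tgfbr2 at 50.2, 54.2 and 56.0 against 19.4, 25.3 and 38.0 (0.92, adjusted p = 0.015, edgeR). In c09 9.25% of genes were called, against 2.48% in c00 and 0.405% in c03, where no member was called. The vehicle values rest on 29 UMIs of Fbn1 and 36 of Tgfbr2. At a finer clustering, Myoc and Gfap led 299, 354 and 307 nuclei in LPA and 62, 91 and 77 in vehicle libraries. Thbs4 and Scn7a led a different cluster, left unnamed, of 128, 175 and 125 against 64, 171 and 154. The mix inside c09 was not balanced, and its part in these calls was not tested. In the largest cluster, c00, led by Grin2c and Slc1a2, the differences were 0.29 for Fbn1 (adjusted p = 0.40) and 0.16 for Tgfbr2 (adjusted p = 0.74). With equal numbers of nuclei of each cluster, none of the 4 genes was called in astrocytes by edgeR. Fbn1 was at 0.58 (adjusted p = 0.065, edgeR) and Ltbp1 at 0.32 (adjusted p = 0.058, edgeR), no smaller than in the whole class. Tgfbr2 was at 0.46 (adjusted p = 0.19, edgeR) and Nrros at −0.22 (adjusted p = 0.36, edgeR), both smaller in size. This fit held 1060 nuclei per library, against 1105 to 2082 in the whole class, and the part of the lower number was not tested. Nrros stood in c09 at 23.9 ± 2.70 in LPA and 9.85 ± 5.88 in vehicle libraries, and in c00 at 36.9 ± 1.88 and 46.1 ± 0.836, above all vehicle libraries in c09 and below them in c00, with neither called (1.12, adjusted p = 0.066, and −0.32, adjusted p = 0.15) and the difference between clusters not tested.

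Of the 48 pathway genes tested in astrocytes, 7 rose and 3 fell, where 8.30% of all genes tested were called. By list, 4 of 15 microfibril partners tested rose and none fell, 2 of 12 signalling genes rose, 2 of 14 genes of activation and release fell, and of 7 transcriptional targets 1 rose and 1 fell. The microfibril partners that rose were Adamtsl3 (1.41, adjusted p = 2.17e-06), Efemp1, which encodes fibulin-3 (0.76, adjusted p = 0.029), Adamts6 (0.47, adjusted p = 0.0021) and Adamtsl1 (0.46, adjusted p = 0.031). Smad6, an inhibitory SMAD (0.59), and Ski, a SMAD co-repressor (0.30), rose, and Itgav, the integrin subunit that activates latent TGF-β (−0.34), fell beside Nrros. Ccn1, a secreted matrix protein, rose (1.53, adjusted p = 4.27e-06) and Cdkn1a, a cell cycle inhibitor, fell (−0.93, adjusted p = 0.016, edgeR).

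In oligodendrocytes 3 of 8 members tested rose and none fell, where 5.24% of all genes tested were called. Fbn2 stood at 154, 154 and 152 CPM in LPA libraries 1 to 3 and at 97.9, 85.4 and 95.8 in vehicle libraries (0.72, standard error 0.06, adjusted p = 2.47e-06). Fbn1 stood at 24.0, 24.0 and 22.5 against 13.4, 13.6 and 11.8 (0.86, standard error 0.10, adjusted p = 5.80e-05), and Ltbp1 at 29.2, 28.6 and 22.6 against 16.9, 14.9 and 16.3 (0.74, standard error 0.11, adjusted p = 0.00050). In all 3 genes every LPA library lay above every vehicle library. The summed level of 8 markers of oligodendrocyte precursors in these nuclei, none at 0, was 753 to 846 CPM in LPA and 499 to 516 in vehicle libraries, and its part in the result was not tested.

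None of these 3 genes was called within any of the 5 oligodendrocyte clusters c02, c06, c08, c10 and c29, where 0.676%, 0.310%, 0.324%, 0.0690% and 0.101% of genes were called. Cluster c08, led by Neu4 and Bmp4, genes of newly forming oligodendrocytes, made up 25.9%, 29.1% and 26.2% of oligodendrocytes in LPA libraries and 16.6%, 15.3% and 15.6% in vehicle libraries (exact permutation test, p = 0.1). Fbn2 stood at 550 ± 10.6 CPM in c08 in LPA and 477 ± 27.8 in vehicle libraries (0.20, adjusted p = 0.40), and at 12.3 ± 1.55 and 12.6 ± 5.12 in c10, led by Casr. Ltbp1 stood at 97.9 ± 9.44 and 96.9 ± 11.6 in c08 (0.02, adjusted p = 0.98) and at 4.98 ± 0.605 and 3.63 ± 1.64 in c06, led by Opalin. Fbn1 stood at 83.1 ± 4.39 and 66.0 ± 10.3 in c08 (0.33, adjusted p = 0.42). With equal numbers of nuclei of each cluster, Fbn2 was at 0.18 (adjusted p = 0.36), Fbn1 at 0.37 (adjusted p = 0.27) and Ltbp1 at 0.16 (adjusted p = 0.72, edgeR) over the class, and none was called. Ltbp1 was also not called at a finer clustering (0.50, adjusted p = 0.11). Of the 46 pathway genes tested in oligodendrocytes, 2 rose and none fell, a share below the 5.24% called over all genes. They were 1 of 10 signalling genes, Smad3, which carries the receptor's signal (0.54), and 1 of 16 microfibril partners, Adamts17 (0.64), while none of 15 genes of activation and release and none of 5 transcriptional targets was called by edgeR, with 2 and 1 at an unadjusted p under 0.05.

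**Figure D5:**
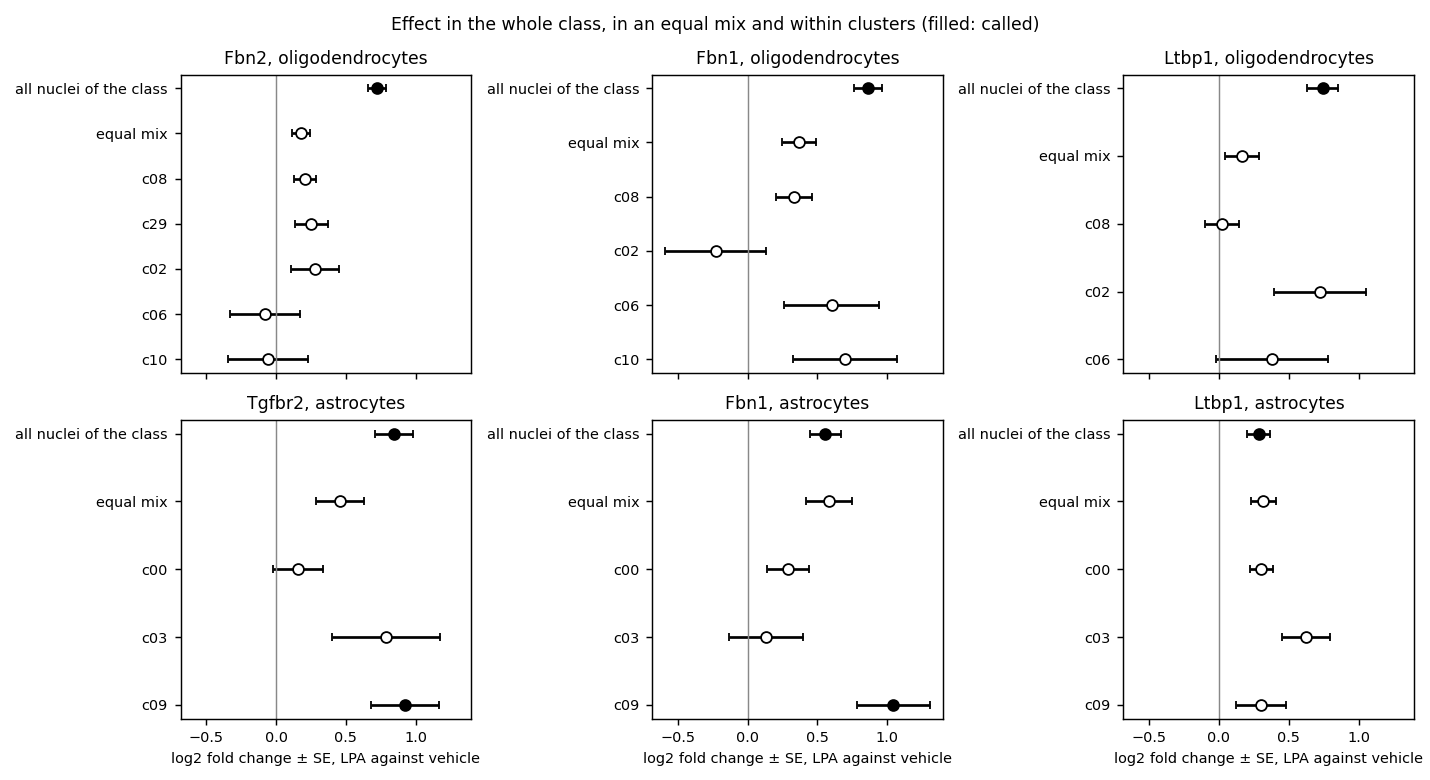
The x axis is the log2 fold change of LPA against vehicle with its standard error, for 3 genes in oligodendrocytes (top) and 3 in astrocytes (bottom); rows give all nuclei of the class, an equal mix of its clusters and single clusters, and filled points are calls. In oligodendrocytes only the class is filled, while Tgfbr2 and Fbn1 of astrocytes are filled in c09 as well.

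Pericytes, the contractile cells on capillaries, had no called member among 6 tested, where 0.212% of all genes tested were called and 1 member, against 7.78% of genes, had an unadjusted p under 0.05. That member was Ltbp1, at 13.7, 9.74 and 11 CPM in LPA libraries 1 to 3 and 22.9, 21.9 and 22.5 in vehicle libraries 1 to 3 (−0.96, standard error 0.43, adjusted p = 0.59). The groups did not overlap, but the sums held 16 and 30 UMIs.

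A second set of nuclei bears on Ltbp1 here. The 22 smooth muscle nuclei held 87 Ltbp1 UMIs. LPA libraries 1 to 3 had 0, 1 and 5 of these nuclei with 0, 0 and 10 Ltbp1 UMIs, and vehicle libraries 1 to 3 had 2, 6 and 8 with 13, 35 and 29. Most of the signal came from vehicle brains. With them added to the pericytes, Ltbp1 was called (−2.05, adjusted p = 0.00060), as it was without the mitochondrial filter (−2.20, adjusted p = 0.0012), where pericytes of vehicle libraries held 41 to 45 UMIs of the smooth muscle gene Acta2 and those of LPA libraries 1 to 16. The smooth muscle genes Myh11 (45, 58 and 95 UMIs in vehicle, 20, 25 and 59 in LPA) and Tagln (9, 19 and 10, 1, 3 and 19) overlapped there. At a finer clustering, which named 14, 28 and 31 nuclei of LPA libraries and 16, 32 and 49 of vehicle libraries smooth muscle, Ltbp1 stood at 2, 2 and 11 UMIs in LPA libraries 1 to 3 and at 13, 37 and 33 in vehicle libraries, and was called (−2.47, standard error 0.42, adjusted p = 0.0034, edgeR). Acta2 moved with it, at 0, 3 and 15 UMIs in LPA and 41, 42 and 39 in vehicle libraries. Myh11, at 6, 16 and 52 UMIs against 40, 49 and 71, and Tagln, at 1, 2 and 18 against 9, 18 and 9, overlapped in UMIs. In CPM without TMM scaling, Myh11 did not overlap, at 146.5, 208.7 and 625.4 in LPA and 1071, 705.8 and 688.5 in vehicle libraries. Tagln overlapped in CPM as well. The part of these genes in the result was not tested. Whether there were fewer such cells or less Ltbp1 in each cannot be told apart at this number of nuclei.

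Endothelial cells had no called member among 7 tested (0.122% of genes called), neurons none among 10 (0.100%), oligodendrocyte precursors none among 6 (0.180%), ependymal cells none among 8 (3.96%) and the choroid plexus epithelium none among 7 (0.0397%). At an unadjusted p under 0.05 edgeR gave 1 member in endothelial cells (7.55% of genes), 2 in ependymal cells (16.5%), 1 in precursors (7.56%) and none in neurons (7.20%) or the choroid plexus epithelium (6.18%). The widest of these differences was Nrros in ependymal cells, at 13.7 to 22.7 CPM in LPA and 6.76 to 9.63 in vehicle libraries (1.30, standard error 0.40, adjusted p = 0.076), from 60 and 14 UMIs. Fbn2 in endothelial cells was at 10.3 to 23.9 against 27.8 to 38.9 CPM (−0.90, adjusted p = 0.61). Of the 37 pathway genes tested in ependymal cells, where 3.96% of all genes were called, Smad7 (−0.82) and Adamts17 (−0.86) fell and Ccn1 (2.08) rose. None of 30 pathway genes tested in pericytes and of 34 in endothelial cells was called by edgeR, with 1 and 5 at an unadjusted p under 0.05.

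Over all nuclei kept, without regard to cell type, 5 of 10 members tested rose and none fell, where 5.62% of all genes tested were called. In such sums, more cells of a type and more RNA per cell cannot be told apart. Ltbp1 stood at 45.6, 49.7 and 46.2 CPM in LPA libraries 1 to 3 and 34.3, 36.8 and 35.5 in vehicle libraries 1 to 3 (0.41, adjusted p = 0.0050). Tgfb1 was at 9.64, 10.5 and 7.78 against 4.86, 6.28 and 5.22 (0.77, adjusted p = 0.017), and Nrros at 24.6, 26.7 and 21.4 against 12.9, 18.4 and 12.7 (0.72, adjusted p = 0.025). Tgfb2 and Tgfbr2 rose by 0.28 and 0.27 (both adjusted p = 0.040, edgeR). The groups did not overlap in any of these 5, which had been picked by their calls.

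Apart from Ltbp1, these calls depended on single libraries. Tgfb1 was not called when LPA 1, LPA 2 or vehicle 3 was left out (0.67 to 0.75), the Nrros call needed LPA 1, LPA 2, vehicle 1 and vehicle 3 (0.64 to 0.72), and Tgfb2 (0.24 to 0.31) and Tgfbr2 (0.23 to 0.30) not without any library but vehicle 1. Microglia made up 5.00% ± 0.426 of the nuclei kept in LPA libraries against 1.68% ± 0.970 in vehicle libraries (p = 0.1 by an exact permutation test), and the part of cell numbers in these values was not tested.

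The 3 genes most like each member were found by Pearson's r of log2(CPM + 1) over 66 sums, 11 cell types by 6 libraries, which share libraries and depth, so r is a description. Tgfb1 went with Klhl6 (0.95), Sipa1 (0.94) and Ralb (0.94), Tgfbr1 with Zfp652 (0.90), Lgals8 (0.90) and Rab3il1 (0.90), Tgfbr2 with Trim34a (0.94), Cflar (0.94) and B4galt1 (0.93), and Nrros with Arhgap25 (0.90), Vsir (0.90) and Apobec3 (0.90). Tgfb2 went with Myo10 (0.84), Vwa8 (0.83) and Parva (0.81), and Tgfb3 with Pawr (0.84), Gm26911 (0.82) and Irs1 (0.80). Ltbp1 went with Xylt1 (0.81), Spon1 (0.79) and Hes5 (0.77), and Ltbp2, with few UMIs, with Slc16a11 (0.68), Ebf2 (0.66) and Col25a1 (0.64). Fbn1 went with Kcnq1ot1 (0.83), Rtl4 (0.81) and Gm13963 (0.81), and Fbn2 with Sema3d (0.85), Cyfip2 (0.77) and Fndc9 (0.75).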

How the data were processed

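RNA of NeuN-negative nuclei was measured in 6 brains, 3 per group. The authors processed the reads with Cell Ranger (4.0.0, per the labels) against a pre-mRNA reference of mm10 and deposited 1 matrix of raw UMI counts per library, unnormalized and holding intronic reads. Cell calls are those of the deposited matrices.

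The filters asked of a nucleus 300 genes or more, a mitochondrial share of UMIs up to 1%, and a UMI total no higher than the upper quartile of its library plus 1.5 interquartile ranges. The kept nuclei had medians of 3732 to 4578 UMIs per library. They were clustered in scanpy (1.11.5, Leiden resolution 1, leidenalg 0.10.2), and immune and vascular clusters were clustered again. Of 76 clusters, 45 were named, from markers detected in at least 10% of their nuclei, and 48867 nuclei were named. These names were rebuilt here, and a difference from the study may come from that. Scrublet marked 12.28% to 15.44% of nuclei per library as doublets. Clusters in which it marked more than 50% stayed unnamed, and other marked nuclei were kept. Nuclei marked as doublets were left out in an alternative.

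UMIs were summed per library and cell type, with at least 10 nuclei per library. They were fitted with edgeR (4.0.16, R 4.3.3; TMM, filterByExpr, quasi-likelihood test) and adjusted by Benjamini-Hochberg over all genes tested in a cell type. In tests on simulated data, 41.5% (macrophages, 1696 genes) to 84% (astrocytes, 14395 genes) of genes made to differ 2-fold were recovered per cell type. Shares of nuclei were compared with exact permutation tests, two-sided. Differences between cell types were interaction terms with the library as a block. DESeq2 (1.42.0), other filters, Leiden resolution 2, sex, a replicate block and leaving out each library were alternatives. The equal mix in 5 cell types, microglia of i00 and i01 alone and the added smooth muscle nuclei were chosen after seeing the data.

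Named genes are the 10 members, the called genes of 4 pathway lists, and the 3 genes most like each member. The members and lists were chosen with earlier results of these data known. Replicate numbers were not taken as pairs.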

Additional observations from a re-analysis of the deposited data

Results flagged for a closer look

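The effect of LPA on 2 members differed between cell types by a test of the difference itself, edgeR's quasi-likelihood interaction term. For Tgfbr1 the effect in microglia minus that in meningeal cells was −1.05 on the log2 scale (standard error 0.13, adjusted p = 3.07e-14). The effect on Tgfbr1 in microglia minus that in endothelial cells was −1.34 (standard error 0.23, adjusted p = 8.86e-06). Both were called under each of the 10 alternatives run for these tests. In CPM, Tgfbr1 was lower in 3 of 3 LPA libraries than in any vehicle library in microglia, while in meningeal and endothelial cells the groups overlapped.

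For Nrros the effect in microglia minus that in endothelial cells was 0.89 (standard error 0.25, adjusted p = 0.029). This difference was lost in 7 of the 10 alternatives: without LPA 1 (0.86, adjusted p = 0.071), LPA 3 (0.79, adjusted p = 0.16), vehicle 1 (0.80, adjusted p = 0.16), vehicle 2 (0.97, adjusted p = 0.099) or vehicle 3 (0.89, adjusted p = 0.079), without the mitochondrial filter (0.69, adjusted p = 0.19) and without doublets marked by Scrublet (0.81, adjusted p = 0.057). All 3 differences take microglia as a whole, in which i02 and i04 made up 48.2% ± 9.12 of nuclei in LPA libraries and 0.657% ± 0.571 in vehicle libraries.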

How the results depend on the processing

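Across cell types, 11 pairs of member and cell type were called. DESeq2 called 7, and an equal mix of sub-clusters in 5 cell types, added after seeing the data, left 2. They were Fbn2 in meningeal cells and Tgfbr1 in macrophages, a cell type that the mix did not cover. The mix also held fewer nuclei of most libraries, and the part of that was not tested. The count was 8 to 12 when each library was left out in turn, the lowest without LPA 3, and 13 without the filter on low counts or without the mitochondrial filter. Over all nuclei 5 members were called, and leaving out each library gave 1 to 4 (1 without LPA 1, LPA 2 or vehicle 3, 3 without LPA 3 or vehicle 2 and 4 without vehicle 1), while sex as a term gave 3. The differences between cell types numbered 3, and 2 to 3 when a library was left out. Same-numbered libraries correlated at −0.17 to 0.24 in their deviations. Some, such as replicate 2 over all nuclei (0.24), lay above the 0.1 set as the limit for pairing. The labels tie no number to a litter or day, and the numbers were not taken as pairs. With a replicate block 9 pairs of member and cell type were called, and 4 members over all nuclei. The share of all genes called was not counted under these alternatives. Their counts therefore describe the members without a baseline. No called pair of member and cell type changed direction under any alternative run, nor did any call over all nuclei or Ltbp1 in pericytes. Other values were not checked for this. DESeq2 lost Nrros in microglia (adjusted p = 0.061) and astrocytes (adjusted p = 0.083), Ltbp1 in astrocytes (adjusted p = 0.075) and Tgfbr1 in macrophages (adjusted p = 0.062); without the mitochondrial filter Nrros in microglia (0.45, adjusted p = 0.052) and Tgfbr1 in macrophages (1.59, adjusted p = 0.12) were lost, and with the block Tgfbr1 in macrophages was at 1.67 (adjusted p = 0.074). Without the mitochondrial filter, a cluster led by Ccl3 and Itgax stayed unnamed and was left out of microglia. It held 75, 101 and 109 nuclei of LPA libraries 1 to 3 and 0, 2 and 0 of vehicle libraries 1 to 3. The causes were not tested. What could be recovered differed by cell type. In the simulated data, 41.5% of genes made to differ 2-fold were recovered in macrophages and 53% in microglia. The share was 57% in endothelial cells, 63.5% in pericytes and 84% in astrocytes, and the part of depth in it was not tested.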
